A study of Mus musculus with 2 samples.

Results

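The 9 genes described here (Rgs13, Sh2d6, Sh2d7, Bmx, Vav1, Pik3r5, Plcg2, Ly6g6f and Fyb) encode signalling proteins that are known from tuft cells or from leukocytes. They were taken as a list by name, chosen with earlier results of these data known. All 9 were found in both deposited tables, which together list 21888 genes. The study profiled single cells that fluoresced green in adult α-gustducin-GFP mice on the C57BL/6J background, a line in which green fluorescent protein reports Gnat3, the gene of the taste G protein subunit α-gustducin. Cells came from the circumvallate papilla (CV) at the back of the tongue and from the fungiform papillae (FP) at its front, with 1 library for each. Both groups carried the same transgene and neither received a treatment that the labels record. The number of mice behind each library is not given in the sources used here. With 1 library per group no test between papillae was possible. The 95% intervals of levels and ratios treat each count as independent, and those of shares treat each cell so. None covers the spread between mice, and those of levels and ratios also leave out the spread between cells. Whether counts hold amplified copies is not known, and if they do, the intervals of levels and ratios are too narrow.

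Of 90 cell barcodes, 53 were kept because they had more than 500 genes and a Gnat3 level above 0.9 on the scale ln(1 + counts per 10000). These were 32 of 61 CV barcodes and 21 of 29 FP barcodes, and the libraries shared 0 barcode numbers. Kept CV cells held 32726 to 3447628 counts (median 543963), and kept FP cells held 193718 to 3190340 counts (median 1141644). Mitochondrial genes took a median of 12.5% of counts in CV cells (1.63 to 88.6%) and 11.1% in FP cells (8.17 to 68.0%). The 7 type II taste cell markers checked (Gnat3, Trpm5, Itpr3, Plcb2, Gng13, Gnb3 and Pou2f3) were detected in both libraries and all 7 lay within 2-fold between them. Cells were kept by Gnat3, so its presence was fixed beforehand, and the other 6 summed to 56.2 to 27043 CPM per cell in CV (median 13459) and to 4065 to 22555 CPM in FP (median 15051). Markers of lingual keratinocytes summed to 0 to 161 CPM per cell in CV (median 0) and to 87.2 to 538 CPM in FP (median 127), and their part in the results below was not tested.

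Type II taste cells detect sweet, umami and bitter compounds through G protein-coupled receptors, a phospholipase C and the ion channel Trpm5. Tuft cells are chemosensory cells of the gut and airways that use much of the same machinery. They also carry proteins that are better known from immune receptor signalling, where tyrosine kinases, adaptors, a Rac exchange factor, phospholipase C gamma and phosphoinositide 3-kinase act one after another. Most of the 9 genes belong to these steps, while Rgs13 acts on the G proteins themselves and Ly6g6f is a surface protein.

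Upstream sequence is shown for 3 members, because Fyb and Pik3r5 were on in the same CV cells, and because Vav1, found in each of those cells, held 1 of the motifs searched. The 9 genes all matched an entry of the RefSeq promoter table of build GRCm38.p6, and the 250 bases before the listed start are printed on the strand of the gene. The Fyb window is chr15:6579597-6579846, the Pik3r5 window is chr11:68431875-68432124 and the Vav1 window is chr17:57278850-57279099, all on the plus strand. Capitals mark the PU box GAGGAAGT, a motif bound by factors of the Ets family.
Fyb: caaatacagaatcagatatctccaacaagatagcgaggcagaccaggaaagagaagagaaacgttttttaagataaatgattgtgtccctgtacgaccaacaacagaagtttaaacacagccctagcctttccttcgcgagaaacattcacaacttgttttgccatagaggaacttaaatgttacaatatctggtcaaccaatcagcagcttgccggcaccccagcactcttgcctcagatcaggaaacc
Pik3r5: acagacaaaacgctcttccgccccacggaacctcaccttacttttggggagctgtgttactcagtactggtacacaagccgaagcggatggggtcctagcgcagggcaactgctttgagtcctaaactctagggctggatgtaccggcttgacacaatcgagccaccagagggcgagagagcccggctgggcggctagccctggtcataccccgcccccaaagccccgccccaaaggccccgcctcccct
Vav1: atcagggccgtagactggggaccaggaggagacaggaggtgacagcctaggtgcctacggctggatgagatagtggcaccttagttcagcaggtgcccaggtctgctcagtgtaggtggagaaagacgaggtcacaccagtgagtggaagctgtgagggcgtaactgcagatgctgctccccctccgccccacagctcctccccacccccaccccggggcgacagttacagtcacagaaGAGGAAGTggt

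The PU box was searched on both strands in windows of 250 bases before and 50 bases after the start, and among the 9 members it was found in Vav1, beginning at position -11 from the start. It was found in 1052 of all 32851 promoters of the table (3.20%). The octamer ATTTGCAT, a motif of POU factors, was found in 0 of the 9 members and in 570 of all promoters (1.74%). No member held both motifs, so they overlapped in none, and a match or its absence says nothing about binding. The start listed for Fyb lies inside the gene as annotated in GENCODE M21 on mm10 (chr15:6522853-6663313, plus strand). The window searched for Sh2d6 (chr6:72519987-72520286) also lies inside its annotated gene. That for Sh2d7 (chr9:54533873-54534172) ends before its annotated gene begins, at 54538984.

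Levels are given as counts per 1000000 counts (CPM), either in a single cell or pooled over the kept cells of a library, and a gene is called on in a cell at 50 CPM or more. Differences between papillae are given as log2 of (CPM + 10) in CV over (CPM + 10) in FP, where the added 10 CPM shrinks the change of low genes, with the plain ratio of pooled CPM beside them. By this scale 6 of the 9 members were at least 2-fold higher in CV, 0 were at least 2-fold lower and 3 lay within 2-fold. Over all 10918 genes that reached 10 CPM in a library, 21% passed 2-fold upward in CV and 17% downward. The median log2 ratio of CV over FP was 1.58 for the members and 0.05 over all these genes. Since the members were chosen with earlier results of these data known, their contrast with all genes is a description. In the 16 cells of each library with at least 500000 counts, again 6 of the 9 were higher and 0 lower, with 22% and 17.8% of all genes, and the members' median was 1.66.

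**Figure D1:**
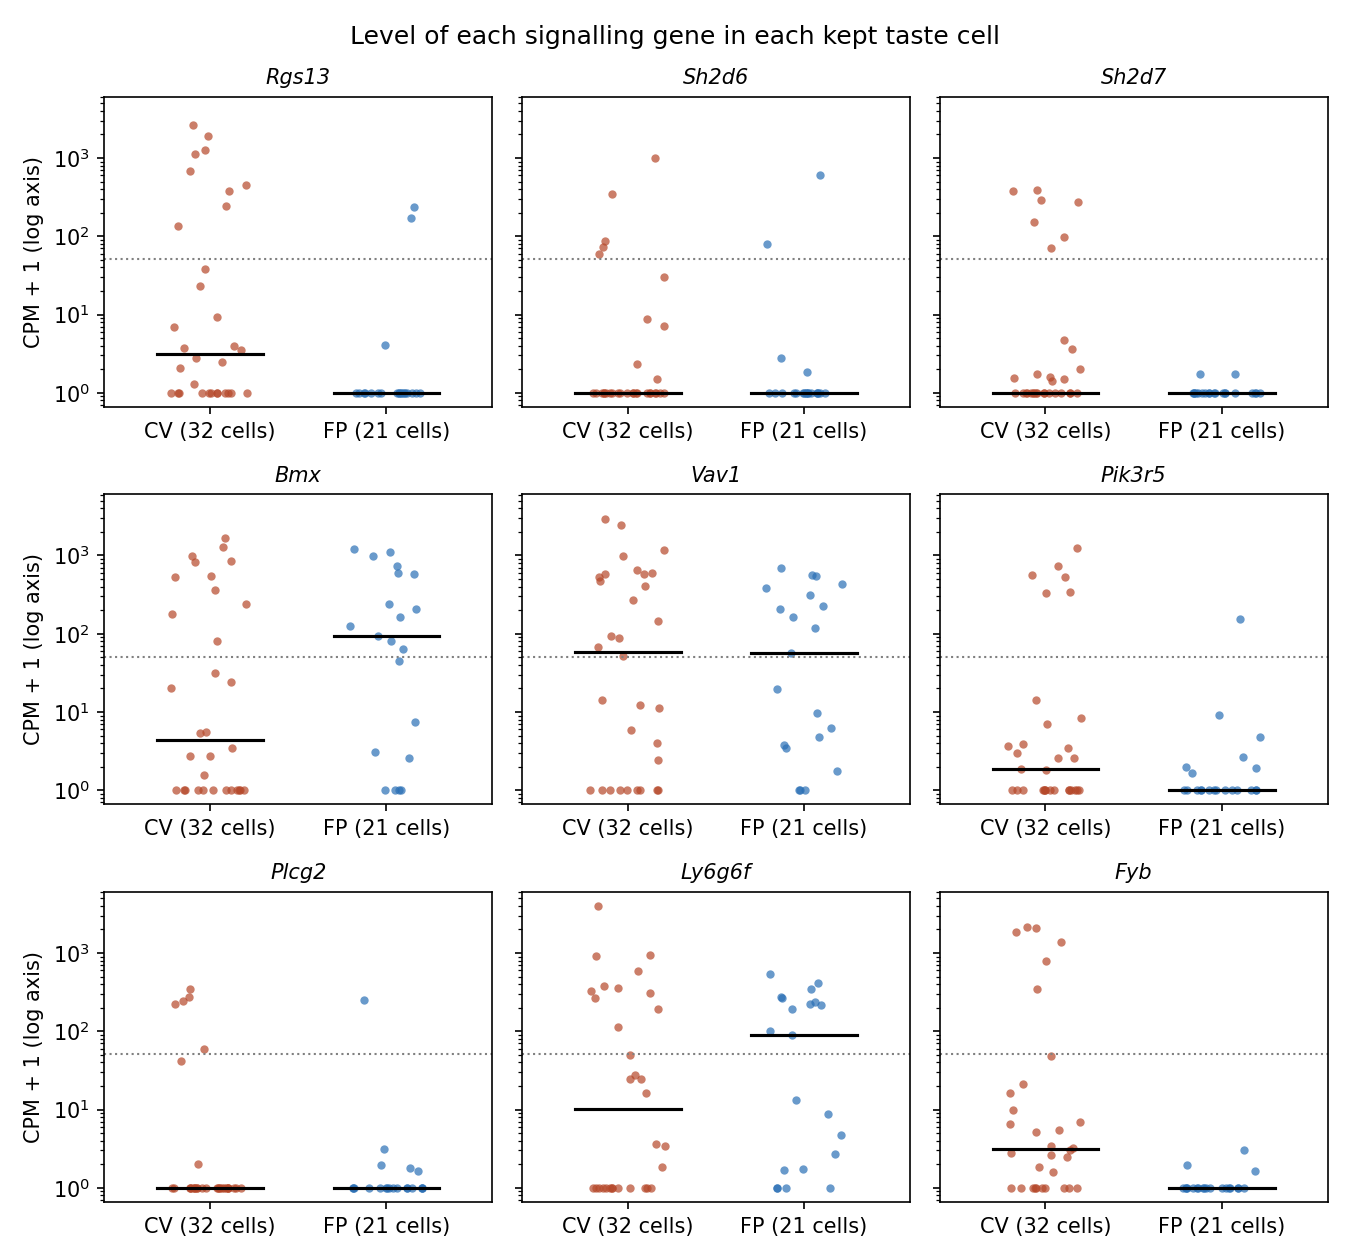
Level of each of the 9 genes in each kept cell, as CPM + 1 on a log axis, with CV (32 cells) left of FP (21 cells), a bar at the median cell and a dotted line at 50 CPM. Fyb reached 2172 CPM in CV and no more than 2.04 CPM in FP, while Bmx, Vav1 and Ly6g6f had cells above the line in both libraries.

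Rgs13, a regulator of G protein signalling that shortens the active state of G protein alpha subunits, was pooled at 538 CPM (530 to 546) in CV cells against 22.2 CPM (20.3 to 24.2) in FP cells. In single CV cells it ran from 0 through a median of 2.16 to 2612 CPM, and it was on in 9 of 32 (28.1%, Clopper-Pearson 13.7 to 46.7). In single FP cells it ran from 0 through a median of 0 to 232 CPM and was on in 2 of 21 (9.52%, 1.17 to 30.4), at 168 and 232 CPM. The pooled ratio of CV over FP was 24.3 (22.2 to 26.6), a log2 difference of 4.09. The levels of the cells overlap between libraries, since most cells of both had little or none, and a single CV cell gave 36.7% of the CV counts. Without that cell the CV level was 369 CPM. Another CV cell with Rgs13 on, at 1118 CPM, had 757 genes and 88.6% mitochondrial counts. The gene lies at chr1:144138654-144177372 on the minus strand of mm10.

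The counts of related genes given here and below stand beside the 21% of all genes that passed 2-fold upward in CV and the 17% downward. Of 14 other genes of the Rgs family that reached 10 CPM in a library, 5 stood at least 2-fold higher in CV, 5 at least 2-fold lower and 4 lay within 2-fold. Rgs2 was pooled at 294 CPM in CV cells against 72.6 CPM in FP cells. Rgs16 lay in the other direction, with 4.91 CPM in CV cells against 122 CPM in FP cells, and Rgs3 had 14.3 CPM in CV cells against 53.1 CPM in FP cells. Rgs21, long known as a taste cell member of the family, had 166 CPM in CV cells against 202 CPM in FP cells.

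Among the kinases and exchange factors, Bmx and Vav1 were the members found in many cells of both papillae. Bmx, a tyrosine kinase of the Tec family, was pooled at 364 CPM (357 to 371) in CV cells against 314 CPM (307 to 321) in FP cells, a ratio of 1.16 (1.13 to 1.20). It was on in 11 of 32 CV cells (34.4%, 18.6 to 53.2), with a median cell of 3.41 CPM and a highest of 1656 CPM. In FP it was on in 13 of 21 cells (61.9%, 38.4 to 81.9), with a median cell of 92.5 CPM and a highest of 1191 CPM. The pooled log2 difference was 0.21, and its sign turned with the weight of the cells, to -0.30 when each cell counted equally and to -0.04 when cells were thinned to equal counts. Bmx lies at chrX:164192842-164258193 on the minus strand.

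Vav1, a guanine nucleotide exchange factor for Rac GTPases, was pooled at 472 CPM (464 to 480) in CV cells against 202 CPM (196 to 208) in FP cells, a ratio of 2.34 (2.26 to 2.42) and a log2 difference of 1.18. It was on in 17 of 32 CV cells (53.1%, 34.7 to 70.9), from 50.3 to 2939 CPM. In FP it was on in 11 of 21 cells (52.4%, 29.8 to 74.3), from 56 to 683 CPM. The shares of cells and the median cells, 58.2 CPM in CV cells against 56 CPM in FP cells, were thus close, and the pooled difference lay in the cells that had the gene, at a median of 529 CPM in CV cells against 313 CPM in FP cells. In the shallowest of the CV cells with Vav1 on, 42809 counts in all, 4 counts made 93.4 CPM. The CV cell with 2939 CPM had 52.7% mitochondrial counts. Vav1 lies at chr17:57279100-57328031 on the plus strand.

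Relatives and partners of these kinases and exchange factors were read in the same way. Of 7 Tec and Src kinase genes that reached 10 CPM in a library, 2 stood at least 2-fold higher in CV, 1 at least 2-fold lower and 4 within 2-fold. Tec, the founding member of the kinase family of Bmx, had 64.8 CPM in CV cells against 38.9 CPM in FP cells, and Csk, which restrains Src kinases, had 270 CPM in CV cells against 176 CPM in FP cells. Of 8 partners of Vav and phospholipase C gamma, 2 were at least 2-fold higher in CV, 0 lower and 6 within 2-fold. Prkcd, a protein kinase C that responds to diacylglycerol, had 87.9 CPM in CV and no count in FP, and was on in 6 CV cells. Rac1, the GTPase that Vav proteins load, had 80.6 CPM in CV cells against 152 CPM in FP cells, and Cdc42 had 486 CPM in CV cells against 505 CPM in FP cells.

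The lipid signalling members were higher in CV when pooled, and most of their CV counts came from few cells. Pik3r5, the p101 regulatory subunit of phosphoinositide 3-kinase gamma, which couples that kinase to G protein beta gamma subunits, was pooled at 239 CPM (233 to 244) in CV cells against 2.43 CPM (1.83 to 3.16) in FP cells. The ratio was 98.2 (75.4 to 131) and the log2 difference 4.32. The cells with it on were 6 in CV, at 327, 341, 523, 558, 739 and 1255 CPM, and 1 in FP, at 155 CPM from 30 counts. The other 26 CV cells had at most 13.4 CPM, so the CV cells fell into 6 with much Pik3r5 and 26 with little or none. Pik3r5 lies at chr11:68432121-68497849 on the plus strand.

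Pik3cg, the catalytic partner of Pik3r5, had no count in the kept cells of either library. Of 7 phosphoinositide 3-kinase genes that reached 10 CPM in a library, 1 stood at least 2-fold higher in CV, 1 at least 2-fold lower and 5 within 2-fold. Pik3r1, a subunit of the class that tyrosine kinases recruit, had 53.2 CPM in CV cells against 83.0 CPM in FP cells.

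Plcg2, phospholipase C gamma 2, was pooled at 58.6 CPM (55.9 to 61.4) in CV cells against 12.9 CPM (11.5 to 14.5) in FP cells, a ratio of 4.55 (4.01 to 5.16) and a log2 difference of 1.58. Plcg2 was on in 5 CV cells, at 59.1, 219, 242, 276 and 349 CPM, and in 1 FP cell, at 246 CPM. That FP cell gave 98.3% of the FP counts, and without it the FP level was 0.233 CPM. The same FP cell also had the highest Rgs13 level of its library. The log2 difference dropped to 0.79 with a pseudocount of 50 CPM. Its sister gene Plcg1 had no count in CV and 0.0442 CPM in FP, while Plcb2, the phospholipase of taste transduction, had 2129 CPM in CV cells against 2930 CPM in FP cells. Plcg2 lies at chr8:117498291-117635142 on the plus strand, and Gm27361 overlaps it on the other strand. The sources used here do not give whether counting used strand, and if it did not, reads of such overlapping genes cannot be told apart.

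Of the adaptor members, Fyb and Sh2d7 were close to absent in FP. Fyb, an adaptor of leukocytes also called ADAP that links receptor signals to integrins and actin, was pooled at 584 CPM (575 to 593) in CV cells against 0.265 CPM (0.0972 to 0.577, 6 counts) in FP cells. Fyb was on in 6 CV cells, at 345, 784, 1391, 1853, 2058 and 2172 CPM, and in 0 of 21 FP cells, for which the Clopper-Pearson limit was 16.1%. The ratio was 2204 (1013 to 6008) and the log2 difference 5.85. At 1 count or more Fyb was seen in 22 of 32 CV cells (68.8%, 50 to 83.9) and in 3 of 21 FP cells (14.3%, 3.05 to 36.3). The 26 CV cells in which it was not on had at most 46.7 CPM, from 2 counts, and the 6 with it on held 99.8% of the CV counts. Whether the low counts in the other CV cells were stray was not tested. Gm7666 overlaps the gene on the same strand and Gm2245 on the other.

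Sh2d7, an SH2 domain gene, was pooled at 82.0 CPM (78.8 to 85.4) in CV cells against 0.0883 CPM (0.0107 to 0.319, 2 counts) in FP cells, a log2 difference of 3.19 and a ratio of 929 (257 to 7675). Sh2d7 was on in 7 CV cells, at 69.9, 96.0, 150, 273, 289, 374 and 390 CPM, and in 0 FP cells, where the highest cell had 0.762 CPM. The groups of cells with the gene on thus held CV cells and no FP cell. Sh2d7 lies at chr9:54538984-54545020 on the plus strand and Cib2 overlaps it on the other strand.

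Sh2d6, a related SH2 domain gene, was pooled at 24.6 CPM (22.8 to 26.4) in CV cells against 40.9 CPM (38.3 to 43.6) in FP cells, a ratio of 0.601 (0.545 to 0.663) and a log2 difference of -0.56. Sh2d6 was on in 5 CV cells, at 58.5, 72.7, 85.6, 344 and 1009 CPM, of which the lowest rested on 3 counts, and in 2 FP cells, at 78.3 and 604 CPM. The FP cell with 604 CPM gave 90.8% of the FP counts, and without it the FP level was 4.0 CPM. Which papilla had more Sh2d6 therefore turned on 1 cell, and the log2 difference was 0.50 with each cell counted equally and 0.95 after thinning. Sh2d6 lies at chr6:72513641-72521707 on the minus strand.

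Ly6g6f, a surface protein with an immunoglobulin-like fold, was pooled at 279 CPM (273 to 285) in CV cells against 168 CPM (163 to 174) in FP cells, a ratio of 1.66 (1.59 to 1.72) and a log2 difference of 0.70. It was on in 11 of 32 CV cells (34.4%, 18.6 to 53.2), from 111 to 4024 CPM. In FP it was on in 11 of 21 cells (52.4%, 29.8 to 74.3), from 89.7 to 531 CPM. The cells of the libraries overlapped over most of this range. The difference passed 2-fold when barcodes were not limited by Gnat3 (log2 1.06) and after thinning (1.10). Ly6g6d, a neighbour gene with a similar name, had 25.7 CPM in CV cells against 96.0 CPM in FP cells. Ly6g6f lies at chr17:35080480-35085610 on the minus strand.

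Of 11 further adaptor genes that reached 10 CPM in a library, 5 stood at least 2-fold higher in CV, 0 lower and 6 within 2-fold, beside 21% higher and 17% lower over all genes. Evl, an actin regulator that Fyb binds in leukocytes, had 92.9 CPM in CV cells against 38.8 CPM in FP cells but was on in 0 of the 6 CV cells with Fyb. Gab2 had 53.6 CPM in CV cells against 20.9 CPM in FP cells, and Grb2 had 133 CPM in CV cells against 195 CPM in FP cells. Lcp2, the partner of Fyb in T cells, had no count in CV and 0.265 CPM in FP. Of 5 further SH2 domain genes, 2 were higher in CV, 1 lower and 2 within 2-fold, with Sh2b1 at 60.5 CPM in CV cells against 25.2 CPM in FP cells.

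To set a level of stray counts, the members were also read in the 7 FP barcodes rich in keratinocyte RNA that the Gnat3 limit left out, which had a median of 1679949 counts against 1141644 in kept FP cells. Ly6g6f had a count in 5 of these 7 barcodes, Bmx and Vav1 in 3 each, Pik3r5 and Plcg2 in 2 each, Sh2d6, Sh2d7 and Fyb in 1 each and Rgs13 in 0. The highest level of any member there was 5.61 CPM, of Sh2d7. In FP a share of cells with at least 1 count is therefore at or near this background for several members. No such level was read in the CV library, and the shares above use 50 CPM.

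The number of members on in the same cell reached a higher value in CV than in FP. In CV a median of 1 member was on per cell with a highest of 8, and in FP a median of 2 with a highest of 4. At least 1 member was on in 24 of 32 CV cells (75.0%, 56.6 to 88.5) and in 18 of 21 FP cells (85.7%, 63.7 to 97.0). At least 3 were on in 11 of 32 CV cells (34.4%, 18.6 to 53.2) and in 7 of 21 FP cells (33.3%, 14.6 to 57). At least 5 were on in 8 CV cells (25%, 11.5 to 43.4) and in 0 FP cells, for which the Clopper-Pearson limit was 16.1%. The shares with 1 or 3 members on overlap between libraries, and cells with 5 or more were seen in CV. Fyb and Sh2d7 were on in 0 FP cells, Pik3r5 and Plcg2 in 1 each and Rgs13 and Sh2d6 in 2 each. The highest numbers per cell are therefore not separate from the levels by papilla given above.

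Depth moved with these numbers. The 8 CV cells with no member on had a median of 94756 counts, and the 8 with 5 or more had 1100195 to 2459319 counts. Among cells of at least 500000 counts, 5 or more members were on in 8 of 16 CV cells (50%, 24.7 to 75.3) and in 0 of 16 FP cells (limit 20.6%), with a median of 4.50 members per CV cell and 2 per FP cell. The median total of these deep cells was 1741346 counts in CV and 1242721 in FP, and the part of that remaining gap in the result was not tested.

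**Figure D2:**
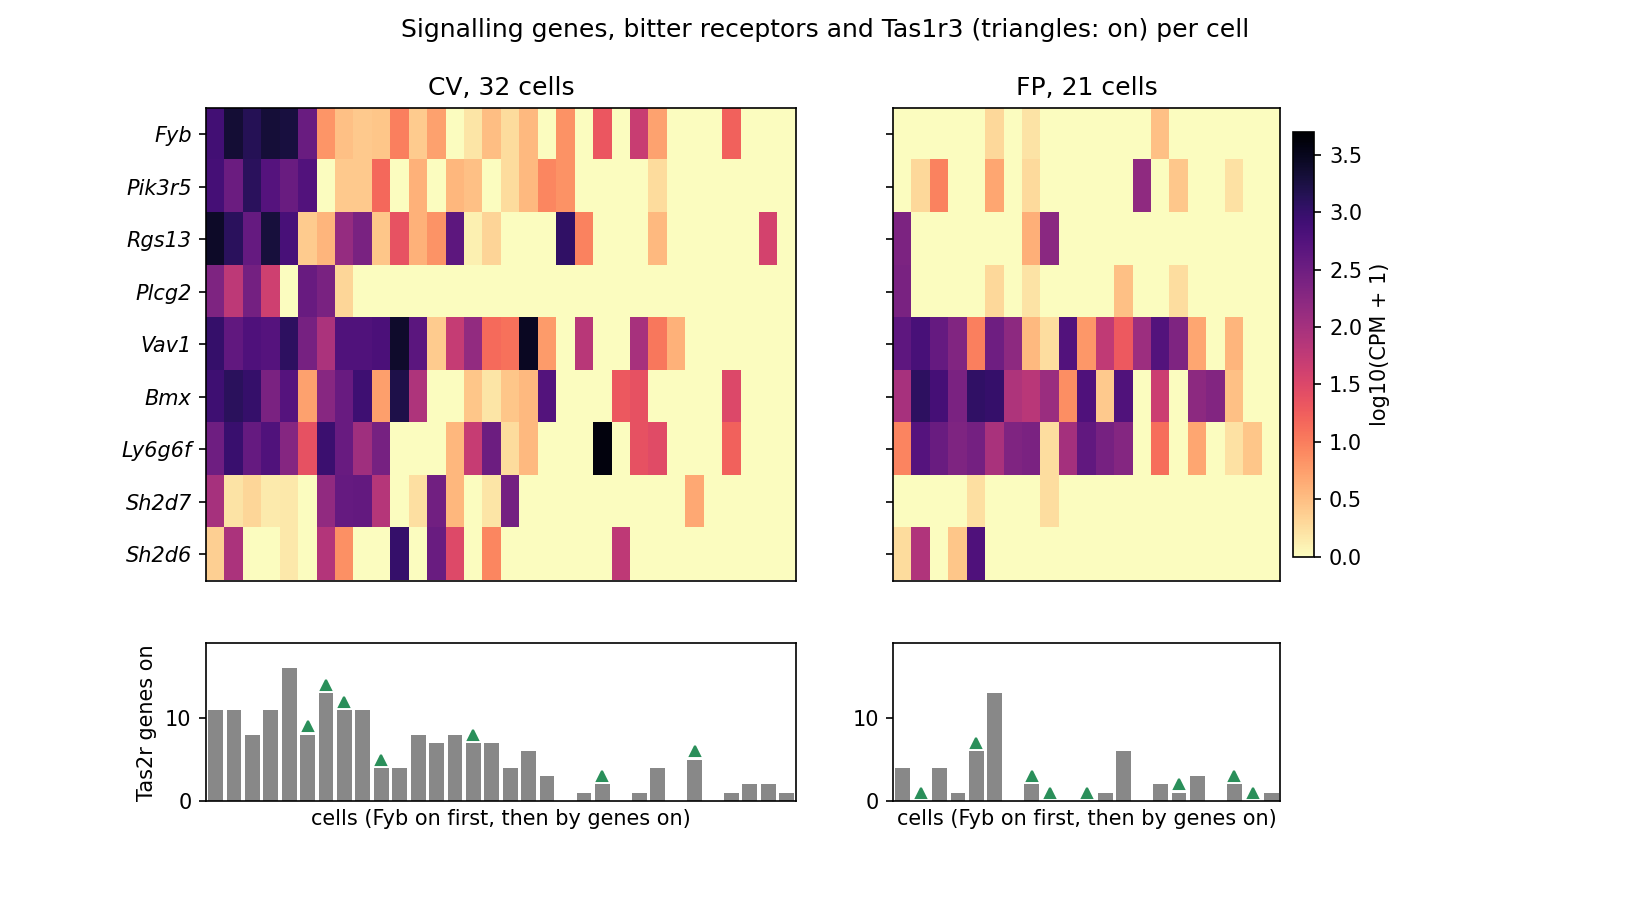
Level of each gene (log10(CPM + 1), dark is high) in each kept cell, CV left of FP, with the number of bitter receptor (Tas2r) genes on as bars and triangles where Tas1r3 was on. In CV the 6 cells at the left have both Fyb and Pik3r5 on, and in FP dark cells are mostly those of Bmx, Vav1 and Ly6g6f.

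Of the 36 pairs that 9 members form, 27 were on together in at least 3 CV cells and none was never on together there. In FP 3 pairs were on together in at least 3 cells and 24 were never on together. The FP pairs were Bmx with Ly6g6f in 9 cells, Vav1 with Ly6g6f in 7 and Bmx with Vav1 in 6. In CV Bmx and Vav1 were on together in 10 cells, out of 11 with Bmx and 17 with Vav1. Vav1 was on in 90.9% of the CV cells with Bmx on and in 33.3% of those without, while in FP it was on in 46.2% of the cells with Bmx on and in 62.5% of those without. FP had fewer cells than CV, and each pair with Sh2d7 or Fyb, which were on in no FP cell, is among the 24. No like count was made over other genes, for pairs or for the number on per cell. Whether the members differ from other genes in this, or only follow depth, was not tested.

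The closest pair was Fyb with Pik3r5, which were on in the same 6 CV cells and each in no other CV cell. Over the 32 CV cells their levels on the ln(1 + counts per 10000) scale had a Pearson correlation of 0.92, as a description of cells that share a library and differ in depth. The 6 cells held 37.4% of all CV counts, but 99.8% of the Fyb counts, 99.4% of those of Pik3r5, 93.2% of those of Rgs13 and 84.5% of those of Plcg2. They held 70.4% of the Bmx counts, 59% of those of Ly6g6f and 57.2% of those of Vav1. The SH2 domain genes stood apart, with 20.1% of the Sh2d6 counts and 9.04% of the Sh2d7 counts in these cells.

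In the 6 cells 4 to 8 members were on (median 6.50), among them Vav1 in 6, Rgs13, Bmx and Ly6g6f in 5 each, Plcg2 in 4 and Sh2d6 and Sh2d7 in 1 each. They had 686924 to 2459319 counts (median 2011742). The other 10 CV cells of at least 500000 counts had 680711 to 3447628 counts (median 1271298). Those 10 had at most 5.45 CPM of Fyb and 13.4 CPM of Pik3r5, and a median of 2 members on. The part of depth in this comparison was not tested. In those 10 cells Rgs13 was on in 2, Plcg2 in 1, Bmx in 4, Ly6g6f in 5, Vav1 in 6 and Sh2d7 in 6. Sh2d7 was thus mostly on in deep cells without Fyb, 6 of the 7 cells with it. These cells were picked by Fyb and Pik3r5, so the values of those genes in them are a description.

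Prkcd was on in 5 of the 6 cells and in 1 other CV cell. Chat, which encodes the enzyme of acetylcholine synthesis, was on in 5 of the 6 cells and in 4 of the other 10 deep CV cells. It had 165 CPM in CV and no count in FP. Since Fyb, Vav1 and Plcg2 are leukocyte genes, leukocyte markers were read in the same cells. Of 22 such markers 8 were listed in the tables, and 6 of these 8 had 0 counts in the 6 cells, in which the 8 summed to 0 to 7.18 CPM per cell (median 0.728). Ptprc, Cd68, Fcer1g and Cd74 had 0 counts in all kept cells of both libraries. The other 4 had counts in CV, with Lyz2 at 7.11 CPM and on in 1 CV cell, and Cd3e at 5.21 CPM. In the CV cells outside the 6, the 8 markers summed to 0 to 180 CPM per cell (median 0). The 6 type II markers other than Gnat3, by which the cells were kept, summed to 8567 to 14613 CPM in each of the 6 cells.

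The genes whose levels went most closely with a member over the 32 CV cells were ranked among 3375 genes with at least 50 CPM pooled and on in at least 5 CV cells. For Fyb they were Tnn (Pearson correlation 0.96), Nrgn (0.94), Pik3r5 (0.92), Acoxl (0.91) and Olfm3 (0.90). For Pik3r5 they were Tnn (0.96), Efr3a (0.93), Fyb (0.92), Col4a4 (0.91) and Themis (0.90). Tnn had 143 CPM in CV cells against 0.397 CPM in FP cells, and Themis, a T cell signalling gene, had 167 CPM in CV cells against 0.353 CPM in FP cells. For Rgs13 the closest were Cbr2 (0.86), Nrgn (0.82), Ctsc (0.81), Apela and Bend7 (0.78 each), with Fyb at place 13. Of the genes named for these 3 members, which had to be on in CV to be ranked, Tnn, Nrgn, Acoxl, Olfm3, Col4a4, Themis and Cbr2 each had at most 0.662 CPM in FP cells. Apela had 2.16 CPM, Ctsc 14 CPM, Bend7 41.3 CPM and Efr3a 85.0 CPM there.

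For each of the other members only the closest gene or genes are listed here. These had correlations of 0.76 to 0.87, and each was on in at least 1 FP cell. They were Kcnj2 for Plcg2 (0.87), Usf2 for Bmx (0.87), Slc16a3 for Ly6g6f (0.86), Arhgap4 for Sh2d6 (0.80), Irgq and Cd47 for Vav1 (0.78 each) and Rnf167 for Sh2d7 (0.76). Usf2 had 301 CPM in CV cells against 244 CPM in FP cells. Further down the 5 closest, Pdlim3 for Plcg2 (0.85) was on in 0 FP cells, at 3.84 CPM pooled, and Nos1ap for Sh2d7 had a correlation of 0.69. Bmx was at place 22 for Vav1 and Vav1 at place 55 for Bmx. Sh2d7 was at place 3246 for Fyb, with a correlation of -0.15.

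CV cells with more bitter receptors on had more members on. Over the 32 CV cells the number of members on and the number of Tas2r genes on had a Pearson correlation of 0.82 and a Spearman correlation of 0.80. Both numbers also went with the log10 of the total counts, at Pearson correlations of 0.65 for the members and 0.80 for the receptors. In the 16 deep CV cells the correlation of members and receptors was 0.74 (Spearman 0.79), and those with depth were 0.28 and 0.36. In the 21 FP cells it was 0.29 (Spearman 0.19). All these are descriptions over cells of 1 library, which share its preparation.

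**Figure D3:**
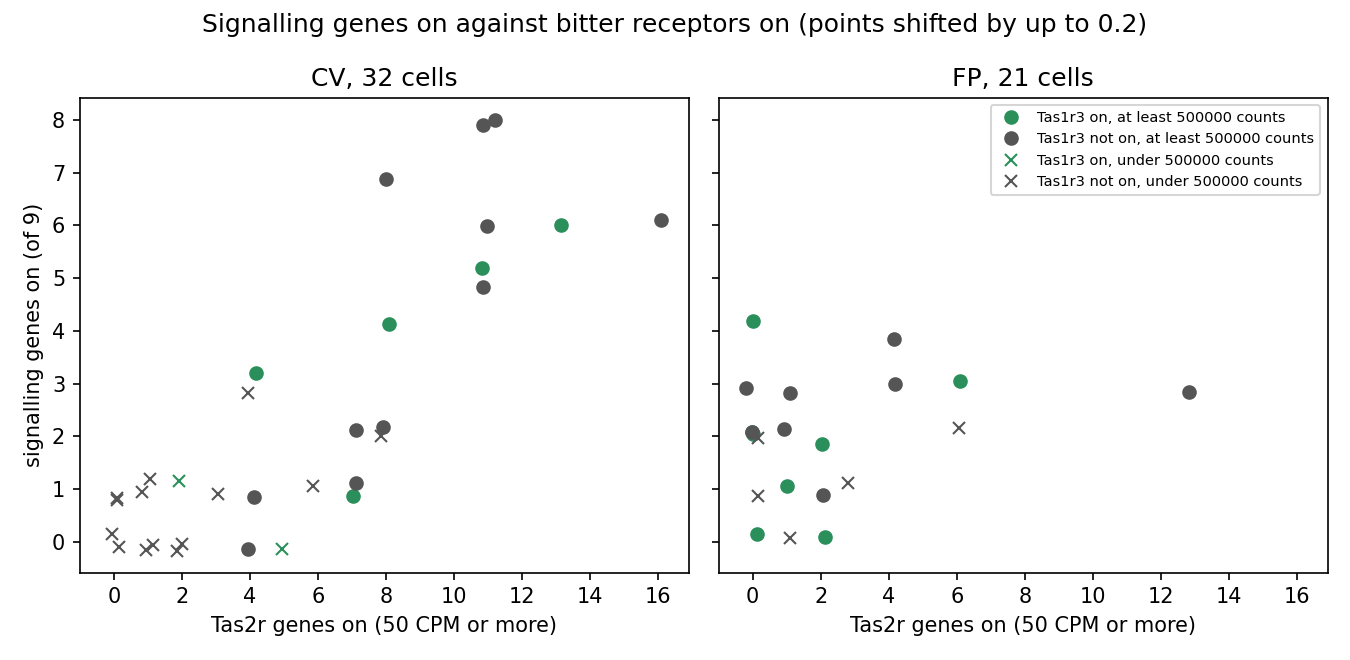
Number of the 9 members on against the number of Tas2r genes on, 1 point per kept cell, CV left of FP, in green where Tas1r3 was on, as dots for cells of at least 500000 counts and crosses below. CV cells with 5 or more members on had 8 to 16 receptors on, and no FP cell had more than 4 members on.

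In CV, 16 cells had more Tas2r genes on than the median cell (4.50) and 16 had fewer. Pooled over them, 7 of the 9 members were at least 2-fold higher in the cells with more receptors and 0 were lower. Over all 10309 genes 43.1% were at least 2-fold higher and 16.9% lower there, and the median log2 difference was 1.78 for the members and 0.67 for all genes. The median total was 1741346 counts in cells with more receptors and 122826 in the others, and the part of depth in this comparison was not tested. Fyb had 709 CPM in cells with more receptors and 3.05 CPM in the others, and Plcg2 had 71.2 CPM and no count, at least 124-fold higher by a floor of 3 pooled counts.

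Among the 16 deep CV cells, 7 had more than 8 Tas2r genes on and 9 had 8 or fewer, with median totals of 1922250 and 1191726 counts. Here 6 of the 9 members were at least 2-fold higher with more receptors and 0 lower, beside 23.3% and 26.2% of all genes, and the median log2 difference was 1.44 for the members and -0.04 for all genes. Rgs13 had 1109 CPM with more receptors and 56.3 CPM with fewer. Bmx had 610 CPM with more receptors, where it was on in 7 of 7 cells, and 152 CPM with fewer, where it was on in 2 of 9. Ly6g6f had 450 CPM with more receptors, on in 7 of 7 cells, and 137 CPM with fewer, on in 3 of 9. Fyb had 1073 CPM with more receptors and 221 CPM with fewer, Vav1 669 and 243 CPM, and Sh2d7 137 and 44.3 CPM. Pik3r5, with 315 CPM in cells with more receptors and 213 CPM with fewer, Plcg2, with 71.7 and 57.9 CPM, and Sh2d6, with 17.9 and 18.5 CPM, lay within 2-fold.

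In FP, 6 of the 9 members had enough counts to be compared. Split at the median of 1 receptor, 2 of these 6 were higher in the 9 cells with more Tas2r genes on than in the other 12, and 0 lower, beside 27.9% and 23.5% of all genes. The 2 were Sh2d6, with 69.3 CPM in cells with more receptors and 8.01 CPM in the others, and Plcg2, with 23.9 and 0.0953 CPM. Each rested on the single FP cell that held most of its counts. Bmx had 371 CPM in cells with more receptors and 248 CPM in the others, and Vav1 had 191 and 215 CPM.

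Tas1r3, the subunit shared by sweet and umami receptors, was on in 7 CV cells and not on in 25. Of the 9 members 0 were at least 2-fold higher in the cells with Tas1r3 on and 4 were at least 2-fold lower, while over all 10527 genes 22.7% were higher and 28.7% lower. The 4 were Fyb, with 29.3 CPM with Tas1r3 on and 813 CPM without, Rgs13, with 30.5 and 748 CPM, Pik3r5, with 47.2 and 318 CPM, and Bmx, with 104 and 471 CPM. The median log2 difference was -0.97 for the members and -0.09 for all genes. Sh2d7 had 111 CPM with Tas1r3 on and 69.9 CPM without, Ly6g6f 295 and 272 CPM, Plcg2 58.8 and 58.5 CPM, and Vav1 303 and 542 CPM, all within 2-fold. Sh2d6 had 10.7 CPM with Tas1r3 on and 30.3 CPM without, a plain ratio of 0.351 that came to a log2 difference of -0.97 with 10 CPM added and so just missed the 2-fold call. With 1 CPM added, 5 members were lower.

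**Figure D4:**
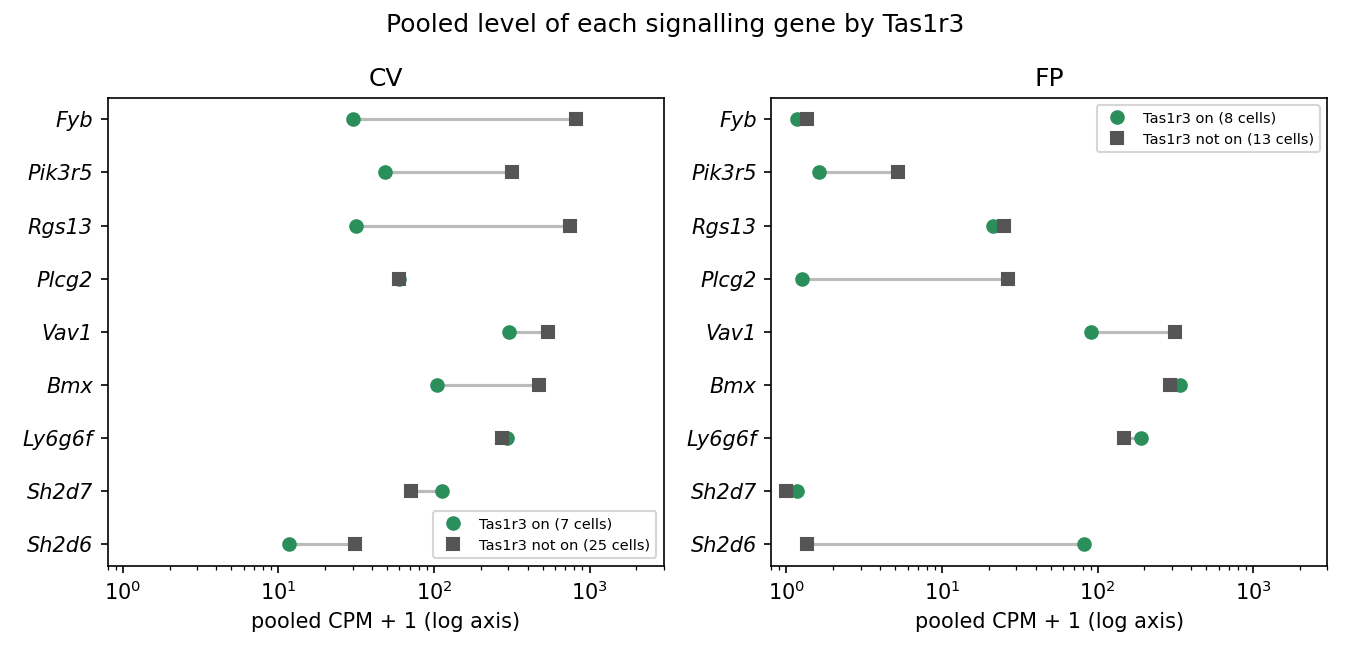
Pooled level of each gene as CPM + 1 on a log axis in cells with Tas1r3 on (circles) and not on (squares), CV left of FP. In CV the circles of Fyb, Rgs13, Pik3r5, Bmx and Sh2d6 lie left of their squares by more than 2-fold on this axis. In FP those of Vav1, Plcg2 and Pik3r5 do, while Sh2d6 lies the other way there. Calls in the text add 10 CPM, so Sh2d6 in CV was not called. Pik3r5 in FP, at 0.617 and 4.25 CPM, was too low to be compared.

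This split rested on few cells and on the level at which Tas1r3 was called. The median total was 1100195 counts in the cells with Tas1r3 on and 401621 in the others. In the deep CV cells, 5 with Tas1r3 on and 11 without, 0 members were higher and 4 lower, beside 23.3% and 29.6% of all genes. Of the 6 cells with Fyb and Pik3r5 on, 1 had Tas1r3 on, at 192 CPM, and that cell had the lowest Fyb of the 6. Another 2 of them had Tas1r3 below the level for on, at 13.8 and 22.9 CPM. When Tas1r3 was called at 10 CPM or more, 9 CV cells had it, 1 member was at least 2-fold higher and 1 lower, beside 22.8% and 21.4% of all genes. At that level Fyb had 530 CPM with Tas1r3 and 628 CPM without, and Rgs13 had 811 CPM with Tas1r3 and 313 CPM without, so that the direction for Rgs13 turned.

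In FP, Tas1r3 was on in 8 cells and not on in 13. Of 6 members that could be compared, 1 was at least 2-fold higher with Tas1r3 on and 2 were lower, beside 25.1% and 24.7% of all genes. Vav1 had 89.2 CPM with Tas1r3 on and 315 CPM without, and was on in 2 of 8 and 9 of 13 cells. Plcg2 had 0.265 CPM with Tas1r3 on and 25.6 CPM without, a difference set by 1 cell. Sh2d6 had 81.3 CPM with Tas1r3 on and 0.354 CPM without, and was on in 2 of 8 and 0 of 13 cells. Bmx had 336 CPM with Tas1r3 on and 292 CPM without. A median of 3 members was on in CV cells with Tas1r3 on and of 1 in those without, and in deep CV cells the medians were 4 and 5. The number of members on had a Pearson correlation with the Tas1r3 level of 0.16 (Spearman 0.42) over the CV cells, 0.00 (0.11) over the deep CV cells and 0.00 (0.03) over the FP cells.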

How the data were processed

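Per the labels' protocols, green fluorescent cells were sorted with gates on size, singlets and the dead-cell dye 7-AAD, and libraries were made on the BD Rhapsody system. The submitters' processing notes name build mm10 and the tools Seurat 2.3.4, Bowtie2 2.3.4.1 and cutadapt 2.10. Alignment to mouse reference RNA, a quality step with DropletUtils and a distribution-based error correction of the matrix are stated in the series design. The authors deposited raw counts, whole numbers for each gene in each barcode. The sources used here do not give whether molecular barcodes were collapsed, so counts may hold amplified copies. In that case the intervals of levels and ratios are too narrow. The authors state a Gnat3 limit of 0.9 whose logarithm can be read in several ways, and it was taken as a natural logarithm here. The sort used singlet gates, and no doublet caller was run on these few cells.

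From these counts, kept barcodes were pooled per library and scaled to CPM. Sums carry exact Poisson intervals, ratios exact conditional binomial intervals and shares Clopper-Pearson intervals. A gene entered a comparison at 10 CPM or more in either group, with a pseudocount of 10 CPM, and was called at a 2-fold difference. Each group had 1 library, so no p-value was computed. The 9 members are all named, and the 5 genes most correlated with a member on in at least 5 CV cells were to be named. All 5 are named for Fyb, Pik3r5 and Rgs13, and only part of them for the other members. The rule also covers the 10 most like all members together, and related genes of fixed lists at 50 CPM or more, at most 4 per list with the largest ratios. Pik3cg, Plcg1, Lcp2, Rgs21 and Cdc42 fall outside this rule and were chosen after their values were seen. The members and lists were chosen with earlier results of these data known, and the on level of 50 CPM likewise. Alternatives covered the cell filter, scaling, pooling, thinning, pseudocount, minimum level and on level. Cells of at least 500000 counts, the removal of CV barcodes with adjoining numbers, a level of 3 counts after thinning, and the shares of counts in the 6 cells with Fyb and Pik3r5 on were added after the data were seen. Gene places are from GENCODE M21 and promoters from RefSeq. The calculation was tested on simulated counts. Python 3.11.15, numpy 2.4.6, scipy 1.17.1, pandas 2.3.3 and matplotlib 3.10.9 were used.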

Additional observations from a re-analysis of the deposited data

Results flagged for a closer look

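Several CV barcodes that the Gnat3 limit left out held members at 50 CPM or more. One of them, with 4088415 counts, Gnat3 at 14.9 CPM and Tas1r3 at 632 CPM, held 5 members, with Vav1 at 259 CPM, Bmx at 160 CPM, Fyb at 145 CPM, Ly6g6f at 144 CPM and Sh2d7 at 119 CPM. Another held Sh2d7 at 17363 CPM, which was 793 of its 45673 counts, with Gnat3 at 43.8 CPM. Pik3r5 stood at 147 CPM in a barcode with 97.8% mitochondrial counts and at 783 CPM in one with 93.2%. Ly6g6f stood at 373 CPM in a barcode with 61.7% mitochondrial counts. The level of stray counts above was read in the FP library alone and sets none for these CV barcodes. Where their member counts came from was not tested.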

How the results depend on the processing

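No paired analysis was possible because each group had 1 library. Under the alternatives run, no member past 2-fold between papillae turned its direction, while Bmx and Sh2d6, within 2-fold, changed sign as the mean over cells and after thinning. The direction for Rgs13 with Tas1r3 turned when Tas1r3 was called at 10 CPM. The number of members at least 2-fold higher in CV (6) ran from 5 to 7, the pairs on together in CV (27) from 22 to 36, and the members higher in CV cells with many Tas2r (7) from 5 to 8. The median log2 ratio (1.58) was 1.62 with no Gnat3 limit, 1.59 with Gnat3 at 50 CPM or more, 1.59 with limits on mitochondrial and ribosomal RNA counts, 1.65 scaled outside those genes, 1.10 as the mean over cells, 1.41 thinned to 71770 counts, 1.62 without the cell of highest total, 1.24 without the cell of highest summed member level, 2.1 and 1.05 with pseudocounts of 1 and 50 CPM, 1.66 in deep cells and 1.66 without adjoining CV barcodes (6, of which 5 were kept). The mean over cells moved the median of all genes to -0.21 from 0.05 in the pooled data. The share with at least 1 member on was 51.8% in CV and 62.1% in FP with no Gnat3 limit, and in CV 90.6% at 1 count and 93.8% in deep cells. The share with at least 3 on was 71.9% in CV and 81.0% in FP at 1 count, and 62.5% in deep CV cells. The members higher with Tas1r3 on in CV (0) were 2 as the mean over cells, 2 thinned, 1 without the cell of highest total, 2 at 1 count and 1 at 10 CPM, and those lower (4) were 1 at 1 count and 1 at 10 CPM. The cause of these moves was not tested. With 21 FP cells, a gene on in 0 of them may still be on in up to 16.1% of cells (Clopper-Pearson).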

Other observations

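Of 19 further tuft cell genes that reached 10 CPM in a library, Gnat3 left out, 6 stood at least 2-fold higher in CV, 2 at least 2-fold lower and 11 within 2-fold, beside 21% higher and 17% lower over all genes. Alox5, the first enzyme of leukotriene synthesis, had 53.8 CPM in CV cells against 0.0442 CPM in FP cells, and Spib, an Ets family transcription factor, had 102 CPM in CV cells against 33.7 CPM in FP cells. Ptgs1, the cyclooxygenase of prostaglandin synthesis, had 57 CPM in CV cells against 223 CPM in FP cells. Alox5 was on in 4 CV cells, 3 of them among the 6 with Fyb and Pik3r5. The 10 genes most like the mean standardised level of all 9 members over the 32 CV cells were Bend7 (0.83), Bag1 (0.82), Nrgn (0.82), Olfm3 (0.81), Rfk (0.81), Enah (0.80), D8Ertd738e (0.80), Apela (0.80), Ncoa7 (0.79) and Acoxl (0.79). Of these, Nrgn, Olfm3 and Acoxl had no count in FP, while Bag1 had 260 CPM in CV cells against 296 CPM in FP cells.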
